A study of Rattus norvegicus with 16 samples.

Results

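The response of microglia to lipopolysaccharide (LPS) was compared between irradiated and sham-irradiated rats, gene by gene. For each gene the change from vehicle to LPS in sham rats was subtracted from the same change in irradiated rats, a difference called the interaction. All 16 libraries of the series entered this test, 4 in each of 4 groups, and it was carried out on 12308 genes, of which 170 (1.38%) had responses that differed at an adjusted p under 0.05. The 4 groups were male Wistar rats (Hsd/Cpb:WU) that had received either a sham procedure or 14 Gy of X-rays, and then, after 6 weeks, an intraperitoneal injection of either phosphate-buffered saline (PBS) or LPS. Whole-brain microglia had been freed mechanically in the cold and sorted by flow cytometry as DAPI-negative, CD11b-high, CD45-intermediate cells, so every group carries the same gate. The age of the rats, the LPS dose and the time between LPS and the sort are not given in the labels. The labels list separate samples without naming animals, and p-values therefore measure the spread between these samples, which may be partly technical.

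Microglia are the resident macrophages of the brain. LPS, a component of the outer membrane of Gram-negative bacteria, is sensed by Toll-like receptor 4 with CD14 and MD-2, and the adaptors MyD88 and TRIF then switch on NF-kB, the mitogen-activated protein kinases and interferon regulatory factors. Immediate early genes, cytokines and chemokines follow, then interferon-inducible genes, and induced inhibitors such as A20 (Tnfaip3) and nuclear IkB proteins (Bcl3) limit the signal. Microglia that have met an earlier injury or inflammatory stimulus can answer a later one more strongly (priming) or less strongly (tolerance).

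Library totals were 16.5e6 to 22.1e6 counts with sham and PBS, 16.3e6 to 19.4e6 with sham and LPS, 14e6 to 24.4e6 after X-rays and PBS, and 18.6e6 to 61.4e6 after X-rays and LPS. Levels below are CPM, a gene's counts scaled to the size of its library with TMM factors, listed for libraries 1 to 4 of a group. Differences and fold changes are log2 values ± SE from edgeR with n = 4 per group, and adjusted p is the Benjamini-Hochberg value over all genes tested. A gene is said to rise or fall only where the adjusted p was under 0.05. In bulk RNA of sorted cells, fewer cells of a type and less RNA per cell cannot be told apart, for every gene described below.

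LPS alone moved a similar number of genes in both arms. In sham rats 3845 of 12308 genes changed (31.2%), 1945 upward (15.8%) and 1900 downward (15.4%). In irradiated rats 4051 changed (32.9%), 2183 upward (17.7%) and 1868 downward (15.2%). The interaction was called for far fewer genes, 83 with a higher value in irradiated rats (0.674%) and 87 with a lower one (0.707%). At an unadjusted p under 0.05 there were 1521 genes. The difference was at least 2-fold for 41 of the 83 and for 52 of the 87, with medians of 0.99 and -1.17 against 0.01 over all genes tested. The split between the directions depended on scaling: with library totals alone 64 genes were higher and 175 lower, and with upper quartile factors 74 were higher and 119 lower.

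The 170 genes were sorted by the signs of their 2 LPS fold changes. A rise that was larger in irradiated rats was seen for 34 genes, with median log2 fold changes of 0.41 in sham and 1.40 in irradiated rats, and for 15 of the 34 only the irradiated change passed its own test. A rise that was smaller in irradiated rats was seen for 23 genes, with medians of 2.25 in sham and 1.16 in irradiated rats. For 6 of the 23 only the sham change passed. A larger fall was seen for 16 genes, for 6 of which only the irradiated change passed. A smaller fall was seen for 10, for 5 of which only the sham change passed. For the other 87 genes the 2 fold changes had opposite signs, 39 of them toward a higher value in irradiated rats and 48 toward a lower one. Most of these sign changes involved 1 response that did not pass its test: only 10 of the 39 and 14 of the 48 were called in both arms, in opposite directions. Among all 12308 genes the same signs gave 19.6% larger rises, 16.9% smaller rises, 18.7% larger falls, 20.2% smaller falls, and opposite signs for 11.9% toward a higher and 12.6% toward a lower value in irradiated rats.

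**Figure D1:**
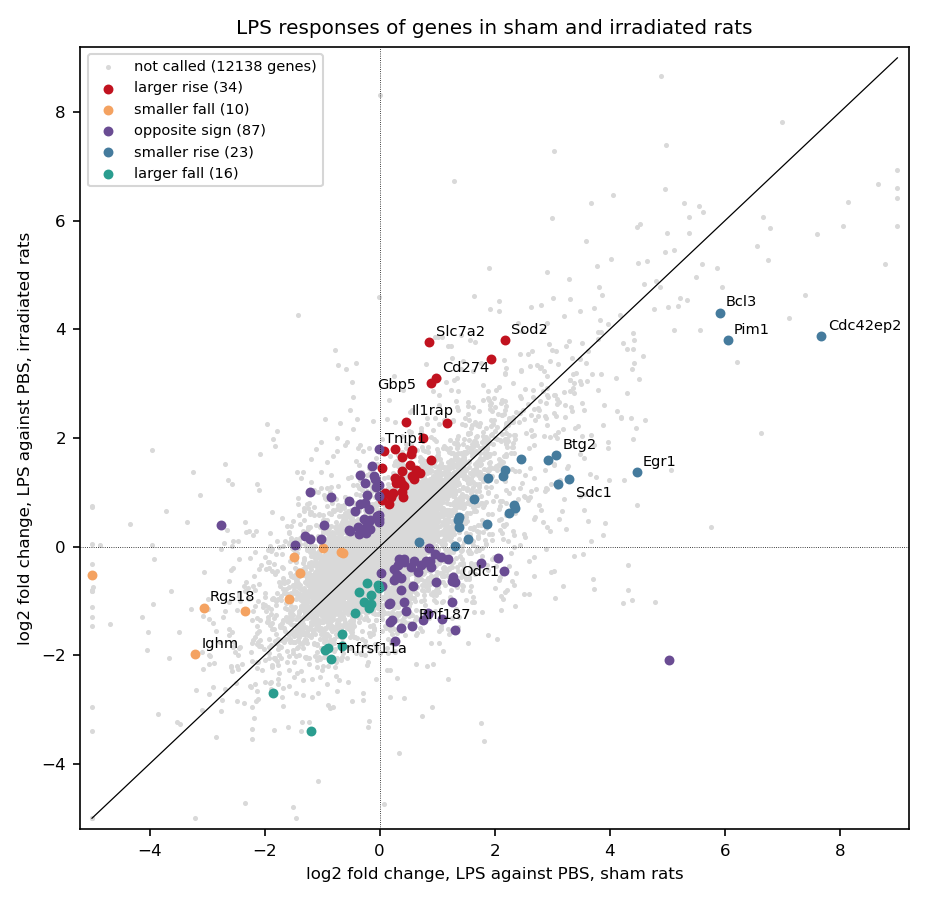
LPS response in sham rats (horizontal axis, log2 fold change) against that in irradiated rats (vertical axis), 1 point per gene tested, with the 170 genes of differing response coloured by class; the line marks equal responses, and values beyond the axes are drawn at the edge. Red points (34 larger rises) lie above the line to the right of 0, blue points (23 smaller rises) below it, and purple points (87 genes) fall in the quadrants of opposite sign.

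The start regions of 4 genes are shown because they let opposite differences be set beside the same regulatory letters: Gbp5, Tnip1 and Tnfaip3 had higher and Bcl3 had a lower response in irradiated rats, and the last 3 are inhibitors of NF-kB signalling or members of its IkB family. Each stretch is the 250 bases before the RefSeq start site (GRCr8 build), 5′ to 3′, with capitals for matches to the kappaB consensus bound by NF-kB and to the interferon-stimulated response element (ISRE, searched as a TTTC, any 2 bases and a second TTTC).
Gbp5, chr2:233910749-233910998, plus strand: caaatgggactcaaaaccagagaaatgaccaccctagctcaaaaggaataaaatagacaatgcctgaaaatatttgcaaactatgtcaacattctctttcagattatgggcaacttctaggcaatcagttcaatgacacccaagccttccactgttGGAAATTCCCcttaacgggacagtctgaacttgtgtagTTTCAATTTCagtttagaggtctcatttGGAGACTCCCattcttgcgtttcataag
Tnip1, chr10:39584962-39585211, minus strand: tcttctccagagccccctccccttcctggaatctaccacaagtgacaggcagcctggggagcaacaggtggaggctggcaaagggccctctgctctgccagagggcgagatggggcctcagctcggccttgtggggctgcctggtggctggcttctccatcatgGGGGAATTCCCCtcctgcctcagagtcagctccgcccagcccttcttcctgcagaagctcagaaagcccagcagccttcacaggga
Tnfaip3, chr1:15543980-15544229, minus strand: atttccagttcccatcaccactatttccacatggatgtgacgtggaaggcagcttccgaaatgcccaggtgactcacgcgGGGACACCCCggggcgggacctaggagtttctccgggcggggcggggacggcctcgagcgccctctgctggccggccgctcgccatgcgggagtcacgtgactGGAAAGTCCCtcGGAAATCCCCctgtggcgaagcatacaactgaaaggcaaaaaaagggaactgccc
Bcl3, chr1:88613556-88613805, minus strand: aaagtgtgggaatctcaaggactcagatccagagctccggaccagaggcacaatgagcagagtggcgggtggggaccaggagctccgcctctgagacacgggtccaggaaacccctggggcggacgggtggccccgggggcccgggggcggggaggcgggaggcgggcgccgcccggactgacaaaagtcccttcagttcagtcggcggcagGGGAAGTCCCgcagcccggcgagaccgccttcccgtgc
Counted from the start site, Gbp5 holds kappaB matches from -94 to -85 and from -28 to -19 and an ISRE from -56 to -47, and a further kappaB match lies after the start, at 33 to 42. Tnip1 holds a palindromic kappaB match from -86 to -75, read on both strands. Tnfaip3 has kappaB matches from -170 to -161, from -67 to -58 and from -55 to -46, and Bcl3 has 1 from -38 to -29. Among these 4 chosen genes, those with a higher response and Bcl3 with a lower one all held kappaB matches. Only Gbp5 held an ISRE.

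Promoter windows of 300 bases (250 before to 50 after the start) were matched for 136 of the 170 genes, and motifs were searched on both strands. A kappaB match was found in 17.5% of 63 windows of higher-response genes, 17.8% of 73 windows of lower-response genes, 9.75% of 9785 windows of genes tested and 7.6% of all 27457 windows. For the ISRE these shares were 7.94%, 2.74%, 3.02% and 3.77%. The interferon-gamma activated site (TTCNNNGAA) was in 9.52% of higher-response and 4.11% of lower-response windows, against 6.76% of windows tested and 8.68% of all. The hypoxia response element core (ACGTG) was in 38.1% of higher-response and 17.8% of lower-response windows, against 25.6% of those tested and 19.7% of all. The AP-1 site (TGANTCA) was in 6.35% and 2.74%, against 4.83% and 7.33%. The CArG box of serum response factor was in 0 and 3 windows, with 1.26% of windows tested and 1.64% of all. The cyclic AMP response element (TGACGTCA) was in 0 and 1 windows, with 3.24% of windows tested and 1.91% of all. Motifs can share bases, and these shares describe letters in the windows, with no test attached.

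Among the receptor complex and its adaptors no difference was called (0 of 17 genes tested, median difference 0.14). Over all genes tested 1.38% were called, the share to set beside each list count here and below. A list of this size would hold few called genes or none at that share, so an empty list says little. NF-kB subunits and inhibitors held 3 called genes of 18, 2 higher and 1 lower (median 0.11). Tnfaip3 encodes A20, a ubiquitin-editing enzyme that ends NF-kB signalling. Tnfaip3 stood at 90.1, 75.2, 61.9 and 71.4 CPM in the sham PBS libraries, at 147, 120.1, 129.7 and 109 CPM with LPS, at 47.6, 67.1, 65.0 and 66.5 CPM in the irradiated PBS libraries and at 295, 177, 202 and 311 CPM with LPS. Tnfaip3 rose by 0.76 ± 0.17 in sham rats and rose by 2.00 ± 0.18 in irradiated rats, so that the difference was 1.24 ± 0.24 (adjusted p = 0.0141). Every irradiated LPS library lay above all 12 others. Tnip1 encodes ABIN1, a partner of A20. Tnip1 stood at 27.1, 29.1, 29.9 and 27.1 CPM in the sham PBS libraries, at 34.2, 30.3, 23.0 and 24.9 CPM with LPS, at 51.8, 46.7, 34.8 and 37.3 CPM in the irradiated PBS libraries and at 164, 121, 113 and 196 CPM with LPS. Tnip1 rose by 1.80 ± 0.17 in irradiated rats, its fold change of -0.01 ± 0.17 in sham rats did not pass the test, and the difference was 1.81 ± 0.24 (adjusted p = 8.35e-04). The sham groups overlapped each other, whereas the 4 irradiated LPS libraries were all above the other 12. Bcl3, a nuclear IkB protein that binds p50 and p52 dimers, went the other way. In CPM, Bcl3 was at 0.684, 1.18, 0.848 and 1.92 (sham PBS), 71.5, 50.9, 89.2 and 71.3 (sham LPS), 5.77, 3.63, 3.49 and 6.39 (irradiated PBS) and 103, 94.5, 86.3 and 101 (irradiated LPS). Bcl3 rose by 5.91 ± 0.28 in sham rats and rose by 4.31 ± 0.25 in irradiated rats, so that the difference was -1.60 ± 0.35 (adjusted p = 0.0271, called in 8 of the 16 leave-one-out fits). The 2 LPS groups overlapped and the PBS groups did not, so the smaller fold change of Bcl3 came with a higher level in irradiated rats before LPS. Among 18 negative feedback regulators 1 was called, Zfp36l1, which promotes decay of AU-rich mRNAs (difference -0.62 ± 0.13 (adjusted p = 0.0158)). The median of that list was -0.27.

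Interferon-gamma-inducible genes and immunity GTPases held 4 called genes of 18, all higher in irradiated rats, with a median of 0.51 and 13 positive values. Gbp5 is a guanylate-binding protein that acts in cell-autonomous immunity and inflammasome activation. Gbp5 stood at 29.6, 27.2, 18.3 and 33.2 CPM in the sham PBS libraries, at 45.9, 46.8, 62.5 and 45.7 CPM with LPS, at 25.8, 21.5, 32.5 and 26.1 CPM in the irradiated PBS libraries and at 263, 241, 141 and 214 CPM with LPS. Gbp5 rose by 0.89 ± 0.20 in sham rats and rose by 3.02 ± 0.21 in irradiated rats, so that the difference was 2.13 ± 0.28 (adjusted p = 8.35e-04). With PBS the sham and irradiated libraries overlapped, and with LPS they were separate. Cd274 encodes PD-L1, the ligand of the T cell inhibitory receptor PD-1. Cd274 was measured at 6.72, 9.92, 7.26 and 6.81 CPM (sham PBS), 10.2, 14.4, 17.9 and 18.1 CPM (sham LPS), 5.71, 5.39, 6.73 and 6.10 CPM (irradiated PBS) and 62.4, 47.5, 36.4 and 60.7 CPM (irradiated LPS). Cd274 rose by 0.98 ± 0.20 in sham rats and rose by 3.11 ± 0.21 in irradiated rats, so that the difference was 2.13 ± 0.29 (adjusted p = 8.35e-04). As for Gbp5, the PBS groups overlapped and the irradiated LPS libraries stood above all others. Casp4, the sensor of cytosolic LPS, had a difference of 0.70 ± 0.13 (adjusted p = 0.0100), and its level with PBS was lower in irradiated rats. Wars1, the cytosolic tryptophanyl-tRNA synthetase, had one of 0.47 ± 0.09 (adjusted p = 0.0158).

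Type I interferon-stimulated genes were called for 2 of 50, Ddx58 (RIG-I, a sensor of viral RNA) at 0.94 ± 0.22 (adjusted p = 0.0406, called in 3 of the 16 leave-one-out fits) and Stat2 (a subunit of the factor that binds ISREs) at 0.67 ± 0.16 (adjusted p = 0.0377, called in 5 of the 16 leave-one-out fits). The list's median difference was 0.38, and 80% of its values were above 0, against 51.7% of all genes tested. LPS raised 21 of the 50 in sham rats and 33 in irradiated rats, beside 15.8% and 17.7% of all genes tested. With PBS, 24 of the 50 were higher in irradiated than in sham rats, beside 11.8% of all genes tested. With LPS 40 were higher, beside 15.6%, and none was lower with either injection. These comparisons share libraries with the interaction. In CPM, Stat2 was at 171, 149, 131 and 156 (sham PBS), 197, 276, 289.8 and 218 (sham LPS), 157, 179, 163 and 171 (irradiated PBS) and 429, 426, 405 and 464 (irradiated LPS). The irradiated LPS libraries of Stat2 were the highest of the 16, and those of sham rats given LPS came next. Of 16 checkpoint and co-stimulatory molecules, Cd86, a ligand of CD28 and CTLA-4, was called beside Cd274, with a difference of 0.50 ± 0.12 (adjusted p = 0.0492, called in 1 of the 16 leave-one-out fits).

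**Figure D2:**
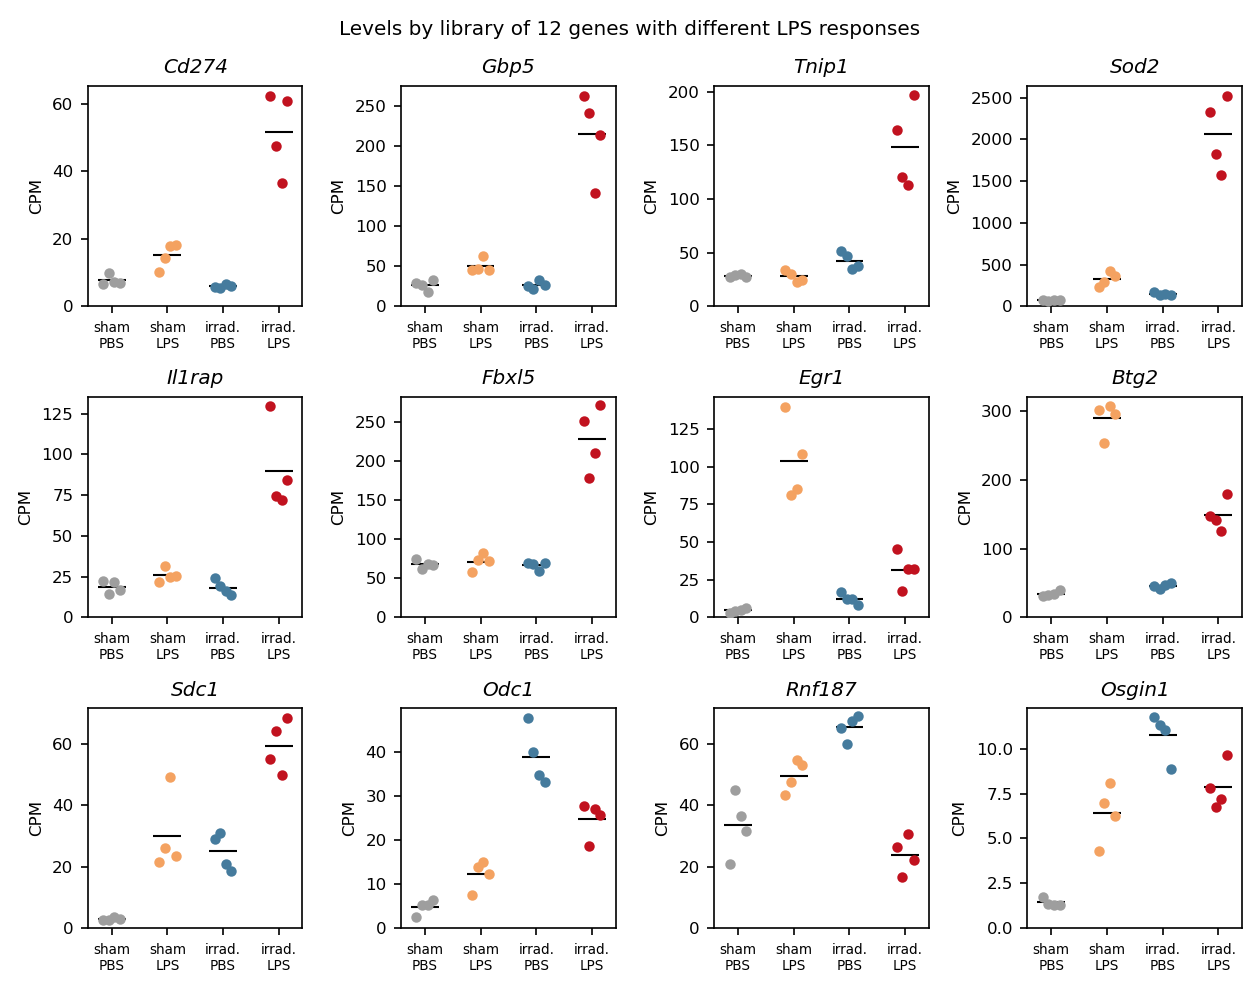
CPM of 12 genes in each library (points) and the group mean (line), for sham and irradiated rats given PBS or LPS, on linear axes that start at 0. Cd274, Gbp5, Tnip1, Sod2, Il1rap and Fbxl5 are highest in the 4 irradiated LPS libraries, whereas Egr1 and Btg2 are highest in the 4 sham LPS libraries, and Odc1 and Rnf187 are highest in the irradiated PBS libraries.

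Inflammatory cytokines and chemokines are the best known products of the LPS response. None of 19 cytokines and antagonists (median 0.33), 10 CC chemokines (median 0.38) and 9 CXC chemokines (median 0.37) passed the edgeR test, beside 1.38% called over all genes. These lists do not hold every cytokine gene. Ebi3, which encodes a cytokine subunit and is not on them, was called (difference 1.52, called in 15 of the 16 leave-one-out fits). In CPM, Il1b was at 21.6, 23.0, 26.0 and 23.0 (sham PBS), 213, 186, 412 and 236 (sham LPS), 56.3, 46.9, 60.0 and 63.6 (irradiated PBS) and 1221, 792, 795 and 1776 (irradiated LPS). Il1b encodes interleukin-1 beta, and its 4 groups did not overlap. Both arms rose, by 3.48 ± 0.29 and 4.34 ± 0.30, and the difference of 0.85 ± 0.38 (adjusted p = 0.371) did not pass. Tnf and Ccl2 encode a cytokine and the main monocyte-attracting chemokine. Their differences were -0.55 ± 0.45 (adjusted p = 0.709) and 1.21 ± 0.57 (adjusted p = 0.416), and neither passed. The co-receptor of interleukin-1 and interleukin-33 signalling, Il1rap, did pass. Il1rap stood at 22.2, 14.6, 21.9 and 16.5 CPM in the sham PBS libraries, at 21.6, 31.3, 24.7 and 25.3 CPM with LPS, at 23.9, 19.3, 16.2 and 13.5 CPM in the irradiated PBS libraries and at 129, 74.2, 71.7 and 84.1 CPM with LPS. Il1rap rose by 2.30 ± 0.21 in irradiated rats, its fold change of 0.45 ± 0.21 in sham rats did not pass the test, and the difference was 1.85 ± 0.29 (adjusted p = 0.00324). The first 3 groups overlapped each other, and the irradiated LPS libraries lay above them, library 1 highest.

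Phagocytic, scavenger and Fc receptors were called in both directions, 3 of 19 higher and 1 lower (median -0.03). The Fc gamma receptors bind immunoglobulin G, Fcgr2b as the inhibitory member and Fcgr2a and Fcgr3a as activating ones. Fcgr2b stood at 929.5, 691, 616 and 619 CPM in the sham PBS libraries, at 619, 699, 665 and 702 CPM with LPS, at 518, 634, 695 and 652 CPM in the irradiated PBS libraries and at 1221, 1399, 1768 and 1564 CPM with LPS. Fcgr2b rose by 1.25 ± 0.13 in irradiated rats, its fold change of -0.09 ± 0.13 in sham rats did not pass the test, and the difference was 1.34 ± 0.19 (adjusted p = 9.44e-04). The first 3 groups overlapped one another and the fourth was separate. Fcgr2a had a difference of 0.71 ± 0.12 (adjusted p = 0.00563) and Fcgr3a one of 0.86 ± 0.15 (adjusted p = 0.00645). These genes are close paralogs, and the counts of Fcgr2a sum 2 gene identifiers, so reads may be split between copies. Itgav, the alpha-V integrin subunit, rose by 0.81 ± 0.11 in sham rats and had a difference of -1.07 ± 0.16 (adjusted p = 0.00177).

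Several genes of iron, sugar and redox metabolism rose more in irradiated rats. Iron handling had 3 called genes of 18, all higher (median 0.26). Fbxl5 is the iron-sensing subunit of the ubiquitin ligase that removes iron regulatory protein 2. Fbxl5 stood at 74.5, 61.6, 67.8 and 67.2 CPM in the sham PBS libraries, at 58.4, 73.6, 82.2 and 71.5 CPM with LPS, at 69.3, 68.8, 59.4 and 69.6 CPM in the irradiated PBS libraries and at 251, 178, 210.2 and 271 CPM with LPS. Fbxl5 rose by 1.77 ± 0.13 in irradiated rats, its fold change of 0.08 ± 0.12 in sham rats did not pass the test, and the difference was 1.69 ± 0.17 (adjusted p = 9.31e-05). The other 3 groups overlapped, and LPS left Fbxl5 of sham rats between 58.4 and 82.2 CPM. Steap4 is a metalloreductase of iron and copper. In CPM, Steap4 was at 206, 167, 185 and 171 (sham PBS), 199, 202, 262 and 215 (sham LPS), 80.3, 86.9, 89.6 and 112 (irradiated PBS) and 270.2, 304, 353 and 351 (irradiated LPS). Steap4 rose by 1.79 ± 0.12 in irradiated rats, its fold change of 0.27 ± 0.12 in sham rats did not pass the test, and the difference was 1.52 ± 0.17 (adjusted p = 1.54e-04). In irradiated rats Steap4 was the lowest of all groups with PBS and the highest with LPS. Slc11a2 encodes DMT1, which imports ferrous iron, and had a difference of 1.27 ± 0.23 (adjusted p = 0.00752).

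Glycolysis and HIF-1 genes had 3 called genes of 28, all higher (median 0.23): Slc2a1, the glucose transporter GLUT1, at 1.15 ± 0.21 (adjusted p = 0.00895), the oxygen-regulated transcription factor Hif1a at 0.77 ± 0.12 (adjusted p = 0.00324), and the phosphofructokinase subunit Pfkl at 0.49 ± 0.11 (adjusted p = 0.0353, called in 3 of the 16 leave-one-out fits). Hif1a was measured at 131, 144, 139 and 155 CPM (sham PBS), 203, 213, 237 and 226 CPM (sham LPS), 128, 139, 144 and 130.4 CPM (irradiated PBS) and 378, 338, 312 and 404 CPM (irradiated LPS). Hif1a overlapped between the PBS groups only. Of the 25 NRF2 and antioxidant genes, 2 were higher and 1 lower (median -0.08). Sod2, the mitochondrial manganese superoxide dismutase and a known NF-kB target, rose in both arms. Sod2 stood at 72.4, 62.8, 79.6 and 74.7 CPM in the sham PBS libraries, at 236, 294, 418 and 362 CPM with LPS, at 166, 138, 146 and 139.9 CPM in the irradiated PBS libraries and at 2321, 1821, 1573 and 2516 CPM with LPS. Sod2 rose by 2.18 ± 0.17 in sham rats and rose by 3.80 ± 0.18 in irradiated rats, so that the difference was 1.63 ± 0.23 (adjusted p = 0.00117). No 2 groups overlapped for Sod2. Prdx5, a peroxiredoxin, had a difference of 1.22 ± 0.22 (adjusted p = 0.00672), and Osgin1 is given with the genes of opposite sign.

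Lipid genes differed in a few members. Of 22 genes of cholesterol synthesis and uptake, 12 were lower in irradiated rats with PBS, beside 10.6% of all genes tested. Of the 22, 2 differed in response: Sqle (squalene epoxidase) by 0.88 ± 0.15 (adjusted p = 0.00630) and Fdft1 (squalene synthase) by 0.84 ± 0.15 (adjusted p = 0.00823). In CPM, Fdft1 was at 56.6, 68.3, 64.2 and 70.2 (sham PBS), 43.9, 46.9, 38.5 and 50.8 (sham LPS), 28.1, 31.1, 35.5 and 34.5 (irradiated PBS) and 43.9, 40.5, 38.6 and 37.5 (irradiated LPS). Fdft1 fell with LPS in sham rats and rose in irradiated rats, and its 2 LPS groups overlapped. Among 18 genes of lipid efflux and droplets, the droplet proteins Plin2 (0.81 ± 0.19, adjusted p = 0.0355, called in 7 of the 16 leave-one-out fits) and Hilpda (0.87 ± 0.21, adjusted p = 0.0448, called in 2 of the 16 leave-one-out fits) were higher. In the list of arginine, polyamine, biopterin and itaconate enzymes (20 genes), Slc7a2, the arginine transporter CAT2, was higher and Odc1 lower. Slc7a2 was measured at 7.34, 4.81, 3.30 and 2.97 CPM (sham PBS), 5.65, 12.5, 6.02 and 9.17 CPM (sham LPS), 2.60, 1.30, 1.23 and 0.520 CPM (irradiated PBS) and 25.6, 12.7, 14.9 and 22.3 CPM (irradiated LPS). Slc7a2 rose by 3.77 ± 0.44 in irradiated rats, its fold change of 0.86 ± 0.39 in sham rats did not pass the test, and the difference was 2.91 ± 0.57 (adjusted p = 0.0141). Slc7a2 was at most 7.34 CPM in the PBS libraries, and its SE was the widest of the genes given with all libraries.

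**Figure D3:**
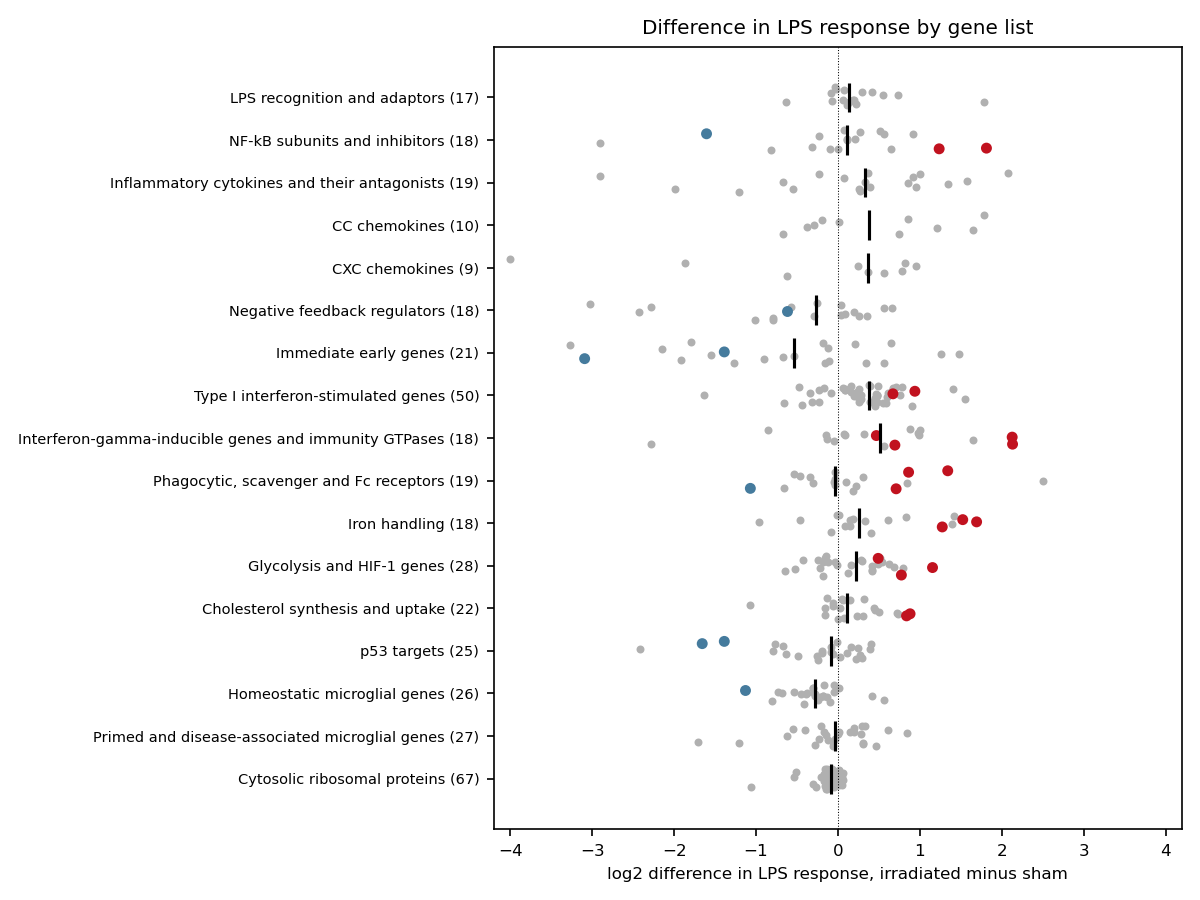
Log2 difference in LPS response (irradiated minus sham, horizontal axis) of the members of 17 gene lists, 1 point per gene tested, with red and blue points for genes called higher and lower, a bar for the list median and the number tested in brackets; values beyond 4 are drawn at the edge. Called genes are few in every list, and the medians lie within 0.54 of 0.

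Immediate early genes, the first to be transcribed after a stimulus, had the lowest median of the inducible lists, -0.54, with 6 of 21 values above 0. Btg2 and Egr1 were called, both lower. Egr1 is a zinc-finger transcription factor. Egr1 stood at 3.05, 4.34, 5.14 and 6.10 CPM in the sham PBS libraries, at 139, 81.0, 85.4 and 109 CPM with LPS, at 16.6, 12.3, 11.8 and 8.21 CPM in the irradiated PBS libraries and at 45.5, 17.4, 31.7 and 32.0 CPM with LPS. Egr1 rose by 4.47 ± 0.32 in sham rats and rose by 1.37 ± 0.28 in irradiated rats, so that the difference was -3.09 ± 0.41 (adjusted p = 9.44e-04). No 2 groups overlapped, and irradiated rats were above sham rats with PBS and below them with LPS. Btg2 is an antiproliferative target of p53. Btg2 was measured at 30.7, 32.4, 34.2 and 40.0 CPM (sham PBS), 301, 254, 306 and 295 CPM (sham LPS), 45.3, 41.3, 47.4 and 50.5 CPM (irradiated PBS) and 148, 142, 126 and 179 CPM (irradiated LPS). Btg2 rose by 3.07 ± 0.12 in sham rats and rose by 1.69 ± 0.11 in irradiated rats, so that the difference was -1.39 ± 0.16 (adjusted p = 1.54e-04). Btg2 also had 4 separate groups, in the same order as Egr1. LPS raised 14 genes of this list in each arm, beside 15.8% of all genes tested in sham and 17.7% in irradiated rats.

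Interleukin-6 and STAT3 genes had 2 called members of 16, both lower, Bcl3 (above) and Pim1. Pim1 is a kinase induced by STAT3. In CPM, Pim1 was at 0.435, 0.358, 0.377 and 0.454 (sham PBS), 18.4, 22.6, 36.4 and 31.1 (sham LPS), 1.27, 0.737, 1.18 and 1.23 (irradiated PBS) and 15.0, 10.5, 20.2 and 16.7 (irradiated LPS). Pim1 rose by 6.05 ± 0.31 in sham rats and rose by 3.81 ± 0.27 in irradiated rats, so that the difference was -2.24 ± 0.40 (adjusted p = 0.00645). Its PBS groups did not overlap and its LPS groups did. Of 25 p53 targets 2 were called, Btg2 and Cdkn1a, the cell-cycle inhibitor p21. Cdkn1a stood at 5.35, 3.42, 3.44 and 3.28 CPM in the sham PBS libraries, at 14.1, 24.0, 22.0 and 19.0 CPM with LPS, at 43.1, 24.7, 64.0 and 50.1 CPM in the irradiated PBS libraries and at 94.1, 67.5, 63.3 and 72.1 CPM with LPS. Cdkn1a rose by 2.36 ± 0.27 in sham rats and rose by 0.70 ± 0.23 in irradiated rats, so that the difference was -1.66 ± 0.35 (adjusted p = 0.0244, called in 11 of the 16 leave-one-out fits). With PBS every irradiated library of Cdkn1a was above every sham library, and the irradiated PBS and LPS libraries overlapped. Sdc1, a heparan sulfate proteoglycan, showed the same pattern of high starting level. Sdc1 was measured at 2.68, 2.76, 3.63 and 3.13 CPM (sham PBS), 21.6, 26.1, 49.3 and 23.7 CPM (sham LPS), 29.2, 31.2, 20.9 and 18.7 CPM (irradiated PBS) and 55.1, 64.2, 50 and 68.5 CPM (irradiated LPS). Sdc1 rose by 3.30 ± 0.26 in sham rats and rose by 1.25 ± 0.23 in irradiated rats, so that the difference was -2.05 ± 0.34 (adjusted p = 0.00446). Sdc1 was highest in irradiated rats given LPS in absolute terms, although the fold was smaller. The actin-binding protein Tagln2 (-1.30 ± 0.20, adjusted p = 0.00177) reached similar levels in sham LPS and both irradiated groups. The LIM-domain protein Fhl2 (-1.95 ± 0.40, adjusted p = 0.0185) overlapped between the LPS groups. Cdc42ep2, an effector of the GTPase Cdc42, had the largest negative difference of the genes described here (-3.81 ± 0.90, adjusted p = 0.0459, called in 5 of the 16 leave-one-out fits), but it had no counts in 2 of the 4 sham PBS libraries, so the size of its sham response depends on the offset used.

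A response in opposite directions, called in each arm, was found for 24 genes. Serpinb9, an inhibitor of granzyme B, had the smallest interaction p of all genes. Serpinb9 stood at 45.2, 38.1, 40.9 and 39.6 CPM in the sham PBS libraries, at 34.9, 34.9, 35.1 and 33.1 CPM with LPS, at 47.5, 46.7, 40.6 and 46.2 CPM in the irradiated PBS libraries and at 102, 96.4, 96.2 and 111 CPM with LPS. Serpinb9 fell by 0.25 ± 0.09 in sham rats and rose by 1.17 ± 0.09 in irradiated rats, so that the difference was 1.41 ± 0.12 (adjusted p = 1.29e-05). The irradiated LPS libraries were all at 96.2 CPM or more and the other 12 at 47.5 CPM or less. Odc1, the rate-limiting enzyme of polyamine synthesis, did the reverse. In CPM, Odc1 was at 2.55, 5.32, 5.32 and 6.45 (sham PBS), 7.57, 13.8, 15.1 and 12.4 (sham LPS), 47.7, 40.0, 34.7 and 33.1 (irradiated PBS) and 27.6, 18.8, 27.1 and 25.6 (irradiated LPS). Odc1 rose by 1.31 ± 0.25 in sham rats and fell by 0.65 ± 0.23 in irradiated rats, so that the difference was -1.96 ± 0.34 (adjusted p = 0.00614). No 2 groups of Odc1 overlapped, and irradiated rats stayed above sham rats with either injection. Rnf187, a ubiquitin ligase, rose by 0.57 ± 0.19 in sham and fell by 1.45 ± 0.19 in irradiated rats, a difference of -2.02 ± 0.27 (adjusted p = 8.35e-04). Rnf187 was measured at 21.0, 45.1, 36.4 and 31.5 CPM (sham PBS), 43.3, 47.7, 54.7 and 53 CPM (sham LPS), 65.2, 59.9, 67.3 and 69.0 CPM (irradiated PBS) and 26.3, 16.7, 30.7 and 22.1 CPM (irradiated LPS). The irradiated PBS libraries of Rnf187 were the highest 4 of the 16, and the irradiated LPS libraries overlapped those of sham rats given PBS. Snx20, a sorting nexin, differed by -1.90 ± 0.31 (adjusted p = 0.00376) and the metalloprotease Amz1 by -1.83 ± 0.23 (adjusted p = 4.98e-04). Pithd1, which fell in irradiated and rose in sham rats, differed by -2.42 ± 0.55 (adjusted p = 0.0351, called in 6 of the 16 leave-one-out fits). Rab11fip1, which binds the recycling GTPase Rab11 and moved the other way, differed by 1.76 ± 0.43 (adjusted p = 0.0468, called in 3 of the 16 leave-one-out fits).

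Further genes had opposite signs with 1 of the responses called. Osgin1 is an NRF2 target linked to oxidative stress. Osgin1 stood at 1.74, 1.38, 1.32 and 1.31 CPM in the sham PBS libraries, at 4.28, 6.96, 8.07 and 6.26 CPM with LPS, at 11.7, 11.3, 11.0 and 8.88 CPM in the irradiated PBS libraries and at 7.78, 6.76, 7.17 and 9.62 CPM with LPS. Osgin1 rose by 2.15 ± 0.24 in sham rats, its fold change of -0.45 ± 0.22 in irradiated rats did not pass the test, and the difference was -2.61 ± 0.32 (adjusted p = 3.91e-04). LPS libraries of the 2 arms overlapped for Osgin1, and the PBS libraries did not. Serpinb1a inhibits neutrophil elastase and related proteases. In CPM, Serpinb1a was at 138, 123, 143 and 137 (sham PBS), 109, 110.3, 94.6 and 113 (sham LPS), 166, 168, 186 and 161 (irradiated PBS) and 684, 345, 352 and 316 (irradiated LPS). Serpinb1a rose by 1.32 ± 0.18 in irradiated rats, its fold change of -0.34 ± 0.18 in sham rats did not pass the test, and the difference was 1.66 ± 0.25 (adjusted p = 0.00324). Its 4 groups were separate, with library 1 of the irradiated LPS group far above the other 3. Tiparp, a mono-ADP-ribosyltransferase induced by the aryl hydrocarbon receptor, differed by 1.39 ± 0.17 (adjusted p = 2.96e-04). Pde4b, a cyclic AMP phosphodiesterase, differed by 1.63 ± 0.23 (adjusted p = 9.44e-04). Toward lower values, the transcription factor Mef2a differed by -1.13 ± 0.25 (adjusted p = 0.0345, called in 6 of the 16 leave-one-out fits) and the lysosomal membrane protein Lamp1, the only called gene of 50 lysosomal genes, by -0.83 ± 0.19 (adjusted p = 0.0377, called in 4 of the 16 leave-one-out fits). Lower differences were also called for Rcn2 (-2.07 ± 0.43, adjusted p = 0.0271, called in 8 of the 16 leave-one-out fits), Mtarc1 (-2.0 ± 0.40, adjusted p = 0.0141) and Crtapl1 (-1.87 ± 0.36, adjusted p = 0.0117).

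Tnfrsf11a, which encodes the receptor RANK, fell in both arms. Tnfrsf11a stood at 70.7, 91.2, 99.9 and 79.5 CPM in the sham PBS libraries, at 46.9, 52.7, 36.4 and 54.2 CPM with LPS, at 81.6, 70.4, 84.9 and 68.4 CPM in the irradiated PBS libraries and at 17.6, 19.7, 17.4 and 18.1 CPM with LPS. Tnfrsf11a fell by 0.84 ± 0.13 in sham rats and fell by 2.07 ± 0.13 in irradiated rats, so that the difference was -1.22 ± 0.18 (adjusted p = 0.00177). The PBS groups overlapped, and the irradiated LPS libraries were all at 19.7 CPM or less. Cxxc5, a CXXC zinc-finger protein, fell in both arms too and differed by -0.97 ± 0.17 (adjusted p = 0.00614). The ceramide kinase Cerk and Blnk fell in irradiated rats, whereas their fold changes in sham rats, -0.03 ± 0.08 and -0.14 ± 0.11, did not pass. Cerk differed by -0.67 ± 0.12 (adjusted p = 0.00645). Blnk, an adaptor of B cell receptor signalling that is also expressed in myeloid cells, differed by -0.76 ± 0.15 (adjusted p = 0.0141). Blnk was measured at 823, 801, 839 and 808 CPM (sham PBS), 738, 675, 647 and 904 CPM (sham LPS), 495, 603, 609 and 592 CPM (irradiated PBS) and 283, 336, 346 and 268 CPM (irradiated LPS). Blnk overlapped between the sham groups only. In the other direction, some genes that fell in sham rats fell less, or had a change that did not pass, in irradiated rats. The immunoglobulin heavy-chain gene Ighm was one. In CPM, Ighm was at 61.5, 83.7, 64.5 and 53.9 (sham PBS), 6.45, 8.03, 8.89 and 5.26 (sham LPS), 142, 93.7, 126 and 129.5 (irradiated PBS) and 32.0, 27.8, 24.5 and 40.1 (irradiated LPS). Ighm fell by 3.20 ± 0.20 in sham rats and fell by 1.98 ± 0.18 in irradiated rats, so that the difference was 1.22 ± 0.26 (adjusted p = 0.0241, called in 15 of the 16 leave-one-out fits). Ighm had 4 separate groups. Rgs18, a regulator of G protein signalling, differed by 1.94 ± 0.45 (adjusted p = 0.0439, called in 4 of the 16 leave-one-out fits), and Mitf, a transcription factor of lysosomal genes, by 0.96 ± 0.22 (adjusted p = 0.0336, called in 6 of the 16 leave-one-out fits). Vps35l, a subunit of an endosomal recycling complex, differed by 0.52 ± 0.12 (adjusted p = 0.0271, called in 7 of the 16 leave-one-out fits). The fold changes of Mitf and Vps35l in irradiated rats, -0.03 ± 0.15 and -0.12 ± 0.08, did not pass.

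Genes that mark resting microglia had mostly negative differences of small size: of 26 homeostatic genes, 3 (11.5%) had a difference above 0, against 51.7% of all genes tested, with a median of -0.28. Low shares were also seen outside microglial genes, at 10.4% of 67 ribosomal protein genes, 7.14% of astrocyte and 5.56% of neuron markers. Mef2a was the 1 called member of the 26, beside 1.38% called over all genes. The purinergic receptor P2ry12 had a difference of -0.22 ± 0.26 (adjusted p = 0.818), Tmem119 one of -0.81 ± 0.26 (adjusted p = 0.180), the fractalkine receptor Cx3cr1 one of -0.30 ± 0.14 (adjusted p = 0.371) and the identity factor Sall1 one of -0.29 ± 0.14 (adjusted p = 0.403). In CPM, Cx3cr1 was at 13824, 14774, 14926 and 14488 (sham PBS), 10831, 11598, 11380.0 and 10891 (sham LPS), 6858, 7922, 8359.8 and 7908 (irradiated PBS) and 3880.5, 5899, 4872 and 4737 (irradiated LPS). Cx3cr1 had 4 separate groups that fell in steps, with irradiation and with LPS. Among 27 primed and disease-associated genes none was called (median -0.03), including Apoe at -0.06 ± 0.12 (adjusted p = 0.916). Clec7a was measured at 29.9, 26.6, 28.6 and 23.5 CPM (sham PBS), 15.7, 42.9, 25.3 and 30.9 CPM (sham LPS), 612, 614, 410.4 and 362 CPM (irradiated PBS) and 772, 897, 883 and 684 CPM (irradiated LPS). Clec7a, the beta-glucan receptor dectin-1, was high in all 8 irradiated libraries and low in all 8 sham libraries, and its difference in response was 0.61 ± 0.34 (adjusted p = 0.514). No gene was called either on the lists of complement components (21 tested), MHC class I loading (13), MHC class II presentation (13), glucocorticoid-responsive genes (18), secreted senescence factors (15), cell cycle (54), oxidative phosphorylation (63), ribosomal proteins (67), the proteasome (31), the unfolded protein response (27), NADPH oxidase (8) or ion channels (30). Over all genes tested 1.38% were called, and the lists do not hold every gene of a pathway. Eif2ak3, an endoplasmic reticulum stress kinase given below, was called and is not on the unfolded protein list. The cyclin Ccnd2 (-0.75) and the channel protein Panx1 (-1.27) were also called and are not on these lists.

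Where the genes stood before and after LPS was read from the irradiated-against-sham comparisons, which share their libraries with the interaction. With PBS, 2754 genes differed between irradiated and sham rats (22.4%), 1453 higher (11.8%) and 1301 lower (10.6%), and with LPS 3558 differed (28.9%), 1926 higher (15.6%) and 1632 lower (13.3%). Of the 83 genes with a higher response, 78 were higher in irradiated rats with LPS and none was lower. With PBS, 23 of them were higher, 13 lower and 47 not called. Of the 87 genes with a lower response, 41 were higher in irradiated rats with PBS, 14 lower and 32 not called. The interaction equals the irradiation difference with LPS minus that with PBS. Choosing genes by a lower interaction therefore itself favours a higher level with PBS and a lower one with LPS. Choosing by a higher interaction favours the reverse. The counts given here, with PBS and with LPS, are thus no separate result. With LPS, 62 of the 87 were lower, 3 higher and 22 not called. In 16 of them irradiated rats were called higher with PBS and lower with LPS, as Egr1, Btg2, Pim1 and Rnf187 were. The 3 that were higher with both injections were Cdkn1a, Sdc1 and Odc1.

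**Figure D4:**
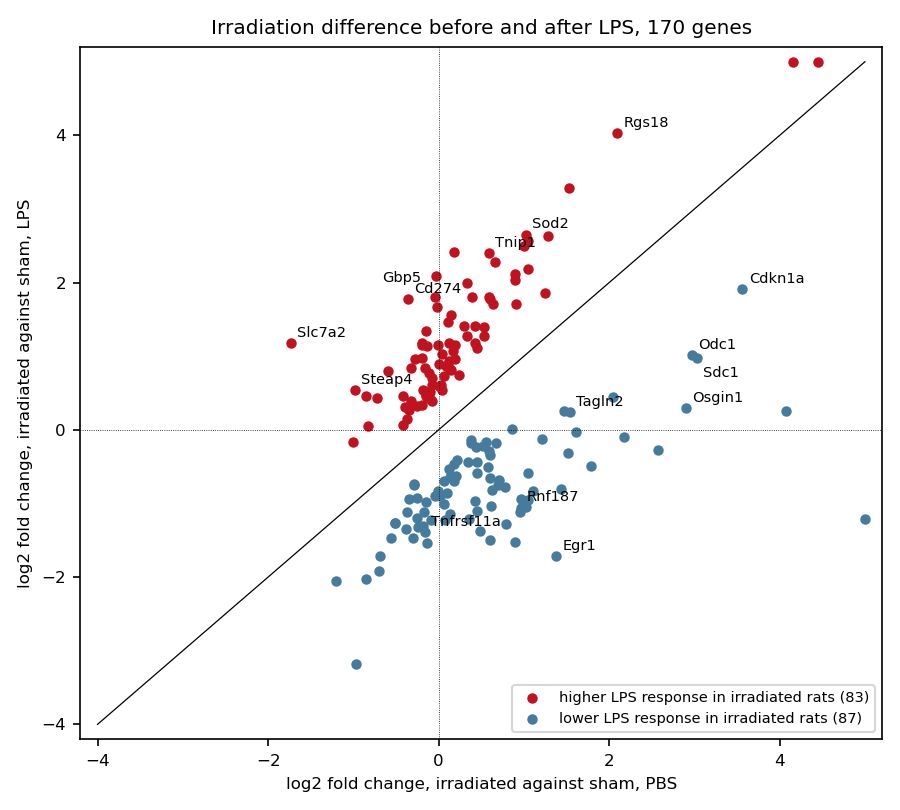
Log2 fold change of irradiated against sham rats with PBS (horizontal axis) and with LPS (vertical axis) for the 170 genes of differing LPS response, red for a higher and blue for a lower response in irradiated rats; the line marks equal fold changes, and values beyond 5 are drawn at the edge. The rule that chose the genes places red points above the line and blue points below it. It also favours higher PBS and lower LPS values among blue genes, and the reverse among red ones. Of the 87 blue genes, 41 were called higher with PBS.

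Sums of the markers of other cells differed between groups. Summed CPM of 19 neutrophil markers was 330.9 to 416.9 in sham PBS, 278.6 to 335.6 in sham LPS and 242.1 to 323.2 in irradiated PBS libraries. In irradiated LPS libraries it was 2646 in library 1 and 511 to 722.5 in the other 3, and 2 of the 19 markers were at 0 in all libraries. LPS raised 12 of the 13 tested neutrophil markers in irradiated rats and 4 in sham rats, beside 17.7% and 15.8% of all genes tested. Their median difference was 2.77, and none of the 13 passed the interaction test. T and NK cell markers (25 genes, none at 0 throughout) summed to 39.39 to 71.97 in sham PBS, 63.3 to 338 in sham LPS, 169.9 to 425.6 in irradiated PBS and 820.4 to 1606 in irradiated LPS libraries. Border-associated macrophage markers (17 genes, none at 0 throughout) summed to 653.9 to 772.3, 794.4 to 1526, 1645 to 2040 and 3815 to 5128 in the same order, and monocyte markers (18 genes, none at 0 throughout) to 2892 to 4316, 2770 to 3870, 14100 to 21010 and 18880 to 22860. A sum weighs abundant genes most, and single members were mixed. The median difference in response was -0.12 for T and NK cell markers (11 of 24 above 0). It was -0.16 for border-associated macrophage markers (7 of 17 above 0) and 0.33 for monocyte markers (15 of 18 above 0). Homeostatic microglial genes (29 genes, 1 at 0 throughout) summed to 125400 to 132700, 104100 to 114300, 57270 to 72270 and 42350 to 57670. Cd274, Serpinb1a, Fcgr2b and Il1rap were likewise highest in the irradiated LPS libraries, and the part of other cells in these results was not tested.

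**Figure D5:**
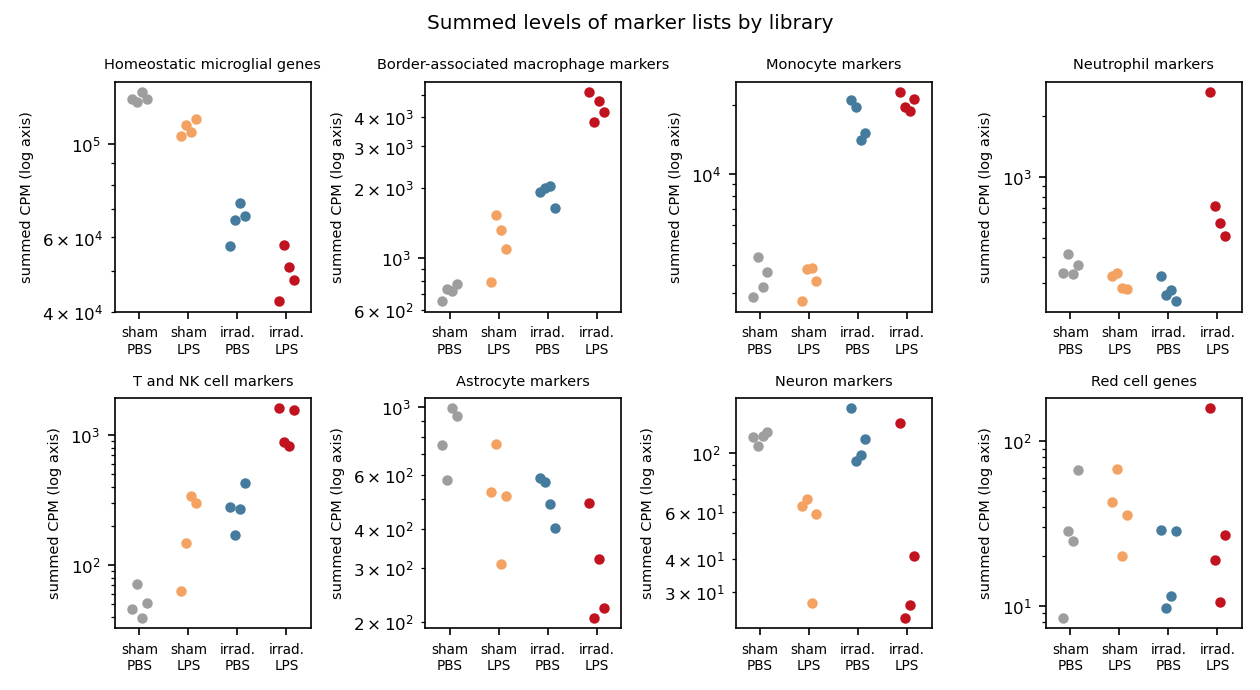
Summed CPM of 8 marker lists in each library (points, log axis) for sham and irradiated rats given PBS or LPS. The neutrophil sum is highest in library 1 of the irradiated LPS group, at 2646, and the border-associated macrophage sum is between 3815 and 5128 in the 4 irradiated LPS libraries, against at most 2040 elsewhere.

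Neuron markers had 1 of 18 differences above 0 (median -0.56) and astrocyte markers 1 of 14 (median -0.93), with none called. Neuron sums were 106.3 to 120.5 CPM in sham PBS, 27.3 to 67.44 in sham LPS, 93.19 to 147.5 in irradiated PBS and 24 to 130.6 in irradiated LPS libraries, so both PBS groups lay above the sham LPS group. Astrocyte sums were 578.8 to 987.3, 307.6 to 754.4, 404.9 to 588.6 and 206.4 to 485.6 CPM in the same order, with sham PBS above irradiated LPS and overlap elsewhere. B cell markers held Ighm and Blnk, 1 in each direction, among 7 tested. None of the monocyte (18), border-associated macrophage (17), T and NK cell (24), endothelial (11), oligodendrocyte (13) or red cell (4) markers was called.

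Leaving out library 1 of the irradiated LPS group, which carries the highest neutrophil sum, left 138 genes called, 122 of them among the 170. The neutrophil sums of the remaining irradiated LPS libraries, 511 to 722.5 CPM, were still above those of every other group. Across 28 alternative settings of the analysis no gene of the 170 changed the sign of its difference where it was tested, 89 were called in each of the 16 fits that left out 1 library, and 23 were called in all 28 settings. Of the 61 called genes named by rule, 18 were lost in at least 1 of the 16 fits, and the number of fits that called each is given beside it. Ighm was lost without sham LPS library 4 alone. These 23 called throughout, named after their values were seen, were Btg2, Cd274, Egr1, Fbxl5, Fcgr2b, Gbp5, Il1rap, Odc1, Osgin1, Pde4b, Sdc1, Serpinb1a, Serpinb9, Snx20, Sod2, Steap4, Tiparp, Tnip1, Amz1, Rnf187, Cxcr3, Eif2ak3 and Il4i1. Among those not yet described, Cxcr3 is the receptor of interferon-inducible chemokines (-2.27 ± 0.38, adjusted p = 0.00521), Eif2ak3 encodes the endoplasmic reticulum stress kinase PERK (-1.56 ± 0.22, adjusted p = 0.00111) and Il4i1 an amino acid oxidase that degrades tryptophan and phenylalanine (2.23 ± 0.39, adjusted p = 0.00645). The number of called genes rested on single libraries: it was 107 without sham PBS library 3, 112 without sham PBS library 1, 113 without irradiated PBS library 3 and 113 without irradiated LPS library 4. At a required difference of more than 1.5-fold, 26 genes passed, 13 in each direction.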

How the data were processed

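RNA of sorted rat microglia was sequenced in 16 libraries. The submitters' processing notes name mRatBN7.2 as the build and list HTSeq 2.0.2, fastp 0.23.2 and FastQC 0.11.9. Which aligner, which annotation and whether strand was used in counting is not given in the sources used here. As deposited, the data are raw counts of reads, in a series table of 21842 symbols and in 16 files of 30560 Ensembl identifiers. The 6518 identifiers without a symbol held 1.85% to 2.28% of the counts and stayed out. The symbol table was fitted with edgeR 4.0.16 (R 4.3.3), using filterByExpr, which kept 12308 genes, TMM scaling, a separate coefficient for each group and robust quasi-likelihood F tests. The interaction and the 4 pairwise contrasts came from this fit, with Benjamini-Hochberg adjustment and calls under 0.05. Each SE is the size of the log2 fold change over the root of F. The biological coefficient of variation was 28%. Libraries of a group differed beyond sampling noise in every pair.

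The comparison, its members and the 45 gene lists (1080 genes, 938 tested) were chosen with earlier results of these data known, and the lists were written from general knowledge. Named genes were the 12 largest differences in each direction among genes with a symbol and a mean log2 CPM of 3 or more, the 3 smallest p of each response class, up to 4 called members of each list and a panel of 10 genes. Exceptions are marked. Alternatives were DESeq2 1.42.0, limma 3.58.1 voom, other scaling and filters, Ensembl-level counts, a replicate block, a fold threshold and leaving out libraries. The fit was tested on simulated data. Promoters are RefSeq sequences of GRCr8, matched by symbol, or by a synonym that names a single gene and is no gene's own symbol.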

Additional observations from a re-analysis of the deposited data

Results flagged for a closer look

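The 61 genes named above that passed the interaction test are listed here because the difference between the 2 LPS responses was itself the tested quantity. In log2 units, the differences toward a higher response in irradiated rats were Slc7a2 2.91, Cd274 2.13, Gbp5 2.13, Rgs18 1.94, Il1rap 1.85, Tnip1 1.81, Rab11fip1 1.76, Fbxl5 1.69, Serpinb1a 1.66, Pde4b 1.63, Sod2 1.63, Steap4 1.52, Serpinb9 1.41, Tiparp 1.39, Fcgr2b 1.34, Slc11a2 1.27, Tnfaip3 1.24, Prdx5 1.22, Ighm 1.22, Slc2a1 1.15, Mitf 0.96, Ddx58 0.94, Sqle 0.88, Hilpda 0.87, Fcgr3a 0.86, Fdft1 0.84, Plin2 0.81, Hif1a 0.77, Fcgr2a 0.71, Casp4 0.70, Stat2 0.67, Vps35l 0.52, Cd86 0.50, Pfkl 0.49 and Wars1 0.47. Differences toward a lower response were Cdc42ep2 -3.81, Egr1 -3.09, Osgin1 -2.61, Pithd1 -2.42, Pim1 -2.24, Rcn2 -2.07, Sdc1 -2.05, Rnf187 -2.02, Mtarc1 -2.0, Odc1 -1.96, Fhl2 -1.95, Snx20 -1.90, Crtapl1 -1.87, Amz1 -1.83, Cdkn1a -1.66, Bcl3 -1.60, Btg2 -1.39, Tagln2 -1.30, Tnfrsf11a -1.22, Mef2a -1.13, Itgav -1.07, Cxxc5 -0.97, Lamp1 -0.83, Blnk -0.76, Cerk -0.67 and Zfp36l1 -0.62.

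A single library lay far from the other 3 of its group in 15 of 280 checks (70 genes in 4 groups), where the gap to the nearest library, as a share of the range of the group, exceeded Dixon's critical value for 4 samples. Chance flags about 1 in 20 groups. In sham rats given PBS these were Rcn2 at 23.4 CPM and Cdkn1a at 5.35 CPM, both in library 1. In sham rats given LPS they were Sall1 at 341 CPM in library 2, Gbp5 at 62.5 CPM in library 3 and Serpinb9 at 33.1 CPM in library 4. In irradiated rats given PBS they were Tnfaip3 at 47.6 CPM and Blnk at 495 CPM in library 1, and Pim1 at 0.737 CPM and P2ry12 at 297 CPM in library 2. Library 3 of that group stood apart for Tagln2 at 122 CPM, Ccl2 at 7.37 CPM and Fbxl5 at 59.4 CPM. In irradiated rats given LPS they were Serpinb1a at 684 CPM in library 1, Crtapl1 at 9.05 CPM in library 3 and Apoe at 10300 CPM in library 4. Library 1 of the irradiated LPS group also had the highest neutrophil sum, 2646 CPM, and Serpinb1a was called with that library left out. The remaining libraries of that group still had neutrophil sums of 511 to 722.5 CPM, against at most 416.9 CPM in any other group. Whether neutrophils had a part in the Serpinb1a difference was not tested.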

How the results depend on the processing

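No gene of the 170 changed the sign of its interaction in the 28 alternatives (1, Hepacam, has no value under the stricter filter), and what moved was the number of calls. DESeq2 called 416 genes (176 higher, 240 lower), 169 of them among the 170. Library totals alone gave 175 lower differences, and for irradiation with PBS 2254 higher and 685 lower genes. Only 26 genes (13 higher, 13 lower) passed a test against a fold of 1.5. The same test left 866 genes for LPS in sham rats (553 higher, 313 lower), 1068 for LPS in irradiated rats (675 and 393), 783 for irradiation with PBS (634 and 149) and 1208 for irradiation with LPS (838 and 370), as it asks for a larger change. Without both irradiated libraries numbered 1, 101 genes were called (48 higher, 53 lower). With 1 library left out, the total ran from 107 to 198, higher differences from 54 to 103 and lower ones from 51 to 107. Lower calls dropped to 51 without sham PBS library 3, 53 without irradiated PBS library 3 and 55 without sham LPS library 4, and higher calls to 54 without sham PBS library 1 and 55 without irradiated PBS library 4 or irradiated LPS library 4. Deviations of same-numbered libraries correlated with a median r of 0.09 (-0.09 to 0.44, 11 of 24 pairs over 0.1), against -0.03 for other pairs, and 13 of 16 libraries correlated best with their own number, a hint from the data. Not every pair passed 0.1 and the labels give no shared source, so the numbers were not taken as pairs. A fit with the replicate number as a block called 226 genes, 133 of them lower, and among named genes Ddx58, Rgs18 and Rab11fip1 did not pass in it. Of the 70 named genes across these settings, 1683 values stayed on their side of the threshold, 276 dropped below it and 1 (Tmem119 in DESeq2) passed it. Where no reason is given, the cause was not tested. With 4 libraries per group and a coefficient of variation of 28%, small differences in response could be missed, and an interaction that did not pass does not show equal responses.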
